A study of Arabidopsis thaliana with 30 samples.

Results

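The genes described here code for 5 enzymes at the entry and the exit of glycolysis: the pyruvate kinases AT5G08570 and AT5G63680, the pyruvate, phosphate dikinase PPDK (AT4G15530), the enolase ENOC (AT2G29560) and the glucose phosphate isomerase AT5G42740. They were chosen by name, without a threshold on any measured value, and are 5 of the 13350 genes that had a probe set for that gene alone. Each had 1 such probe set. The 30 arrays of Arabidopsis thaliana seedlings fell into 10 groups of 3, from 5 conditions and 2 RNA pools. The conditions were 2 h in air, 2 h of hypoxia (low oxygen), 9 h in air, 9 h of hypoxia, and 9 h of hypoxia followed by 1 h back in air, called recovery below. Each condition gave total RNA and polysomal RNA, the mRNA that was bound to ribosomes and purified through a tagged ribosomal protein.

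All 10 groups, the air controls included, were whole seedlings, 7 days old, of the Col-0 line 35S:His6FLAG-RPL18B. This line holds a single copy of a transgene in which the viral 35S promoter drives a tagged large-subunit ribosomal protein, so the polysomal pool holds mRNA from cells in which that promoter was active. Treatments began as the light period ended and ran in dim light. The 3 replicates were independent experiments, per the labels.

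Glycolysis splits sugar into pyruvate and yields ATP without oxygen. Glucose phosphate isomerase turns glucose phosphate into fructose phosphate near the start of the pathway. Enolase makes phosphoenolpyruvate near its end, and pyruvate kinase passes the phosphate of phosphoenolpyruvate to ADP, giving ATP and pyruvate. PPDK catalyses a reversible reaction between the same metabolites, pyruvate and phosphoenolpyruvate, with pyrophosphate as a partner. When respiration is short of oxygen, plant cells depend on glycolysis for ATP, and pyruvate decarboxylase and lactate dehydrogenase carry its product into fermentation.

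Total array means lay between 5.75 and 5.81 on the deposited log2 scale. Polysomal means were 5.36 in 2 h air, 4.54 in 2 h hypoxia, 5.36 in 9 h air, 4.34 in 9 h hypoxia and 5.20 in recovery, and the mean of 18 bacterial and phage control probe sets also fell, from 9.48 to 8.66 at 2 h and from 9.34 to 8.64 at 9 h. In total RNA the same controls were higher under hypoxia, from 9.54 to 9.83 at 2 h and from 9.72 to 9.99 at 9 h, so they did not track the array means. The cause of the polysomal shift was not tested. Total RNA is given as deposited. Because the polysomal array means shifted, polysomal RNA is given as the log2 signal minus its array's mean, with the change on the deposited scale beside it. A mean-centred change is relative to the average probe set. Values with an array or replicate left out are on the same scale as the result they follow. Centring on array medians instead would add 0.16 to each total RNA change at 9 h. The hypoxia-induced genes PDC2 (5.33) and AT3G10040 (4.50) had higher log2 total RNA in 9 h hypoxia than in 9 h air. Over the total RNA arrays the leaf markers RCA and LHCB4.2 lay between 13.46 and 13.96 and between 10.83 and 12.99. Of the root markers, PYK10 lay between 12.02 and 13.50, EXPA7 between 3.77 and 5.82, and EXPA18 between 3.62 and 7.01. The summed signal of the 3 root markers measured, of 6 listed, lay at 13.28 to 13.36 (log2) in 9 h air and at 12.22 to 12.34 in 9 h hypoxia, and that of the 2 leaf markers, of 6 listed, at 14.35 to 14.43 and at 13.76 to 13.93. Between 9 h air and 9 h hypoxia LHCB4.2 changed by -2.05 and RCA by -0.06 in total RNA. PYK10 changed by -1.04, EXPA7 by -1.45 and EXPA18 by -2.67. No marker was at 0, though EXPA7 and EXPA18 reached below the total RNA array medians, which averaged 5.19 to 5.39. The part of these shifts in the results was not tested, and in whole seedlings fewer cells of a type and less RNA per cell cannot be told apart.

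After 9 h of hypoxia, total RNA of both pyruvate kinases and of the glucose phosphate isomerase was higher than in 9 h air and that of the enolase was lower. So 3 of the 5 genes rose and 1 fell at an adjusted p under 0.05, where 45.8% of all probe sets passed, 21.3% higher and 24.5% lower. The median log2 change was 0.71 over the 5 genes and 0.03 over all probe sets. After 2 h, AT5G08570 alone passed, and it rose, where 20.7% of all probe sets passed and 8.2% rose. In mean-centred polysomal RNA all 5 genes rose at 2 h, where 33.3% of probe sets passed and 15.7% rose. As deposited, PPDK alone rose at 2 h and 3 fell, where 90.9% of probe sets passed, 623 higher and 20042 lower. At 9 h on the mean-centred scale 4 rose and ENOC fell, where 47.9% of probe sets passed, 22.6% higher and 25.3% lower. On the deposited scale 3 rose at 9 h, ENOC fell and PPDK did not pass, where 93.4% of probe sets passed, 1031 higher and 20209 lower.

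**Figure D1:**
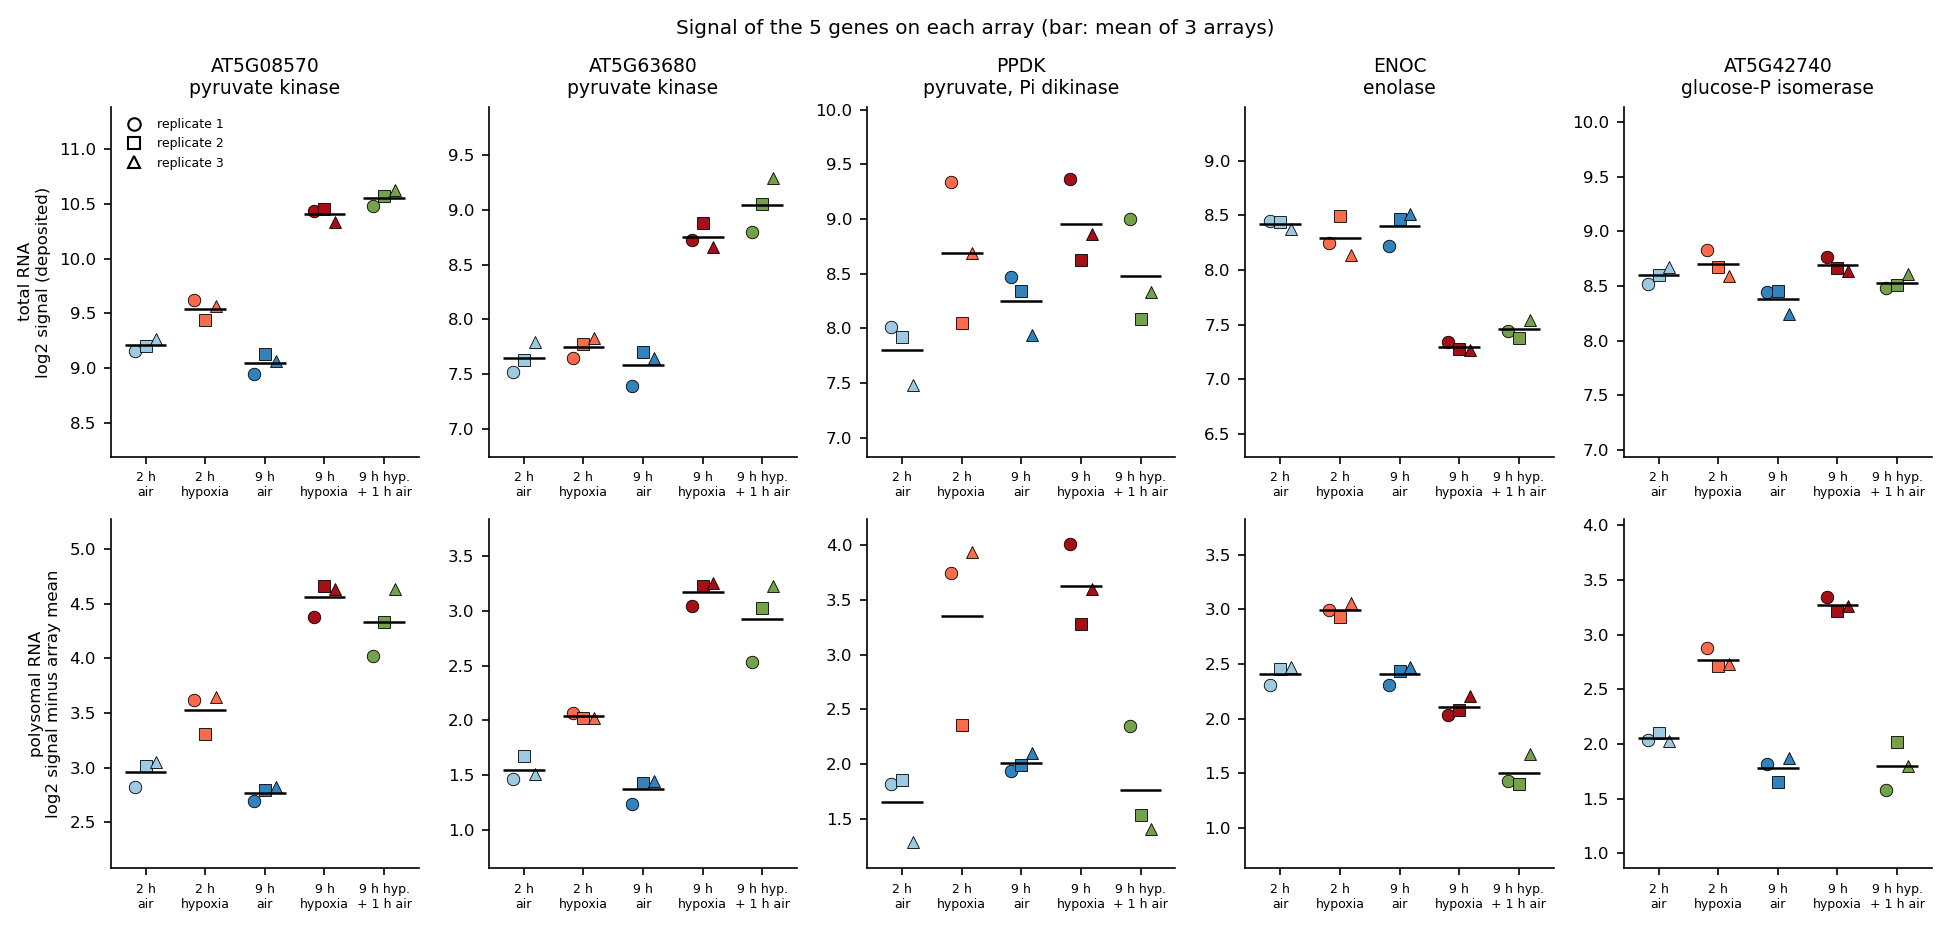
Log2 signal of the 5 genes on each of the 30 arrays, with total RNA as deposited (top) and polysomal RNA minus the array mean (bottom); symbols are replicates, bars are means of 3, and every panel of a row spans the same number of log2 units. The pyruvate kinases are high in 9 h hypoxia and in recovery, ENOC is low there in total RNA, and PPDK and AT5G42740 are low again in polysomal RNA of recovery.

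The glucose phosphate isomerase AT5G42740 varied little in total RNA. The 3 replicates gave 8.52, 8.60 and 8.67 in 2 h air, and 8.83, 8.68 and 8.59 in 2 h hypoxia. They gave 8.44, 8.46 and 8.25 in 9 h air, 8.76, 8.67 and 8.64 in 9 h hypoxia, and 8.48, 8.51 and 8.61 in recovery. The 9 h air arrays were lowest and overlapped none of the neighbouring group, recovery, while recovery, 2 h air, 9 h hypoxia and 2 h hypoxia overlapped each with the next. Total RNA was 0.31 ± 0.0955 (log2 ± SE) higher in 9 h hypoxia than in 9 h air, 1.24-fold (adjusted p = 0.00954), and the call ended without replicate 3 of 9 h air (0.24, adjusted p = 0.0698) and without replicate 3 of all groups (0.27, adjusted p = 0.132). The difference at 2 h was 0.10 (95% interval from -0.10 to 0.30, adjusted p = 0.574).

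Polysomal RNA of AT5G42740 lay farther apart between conditions. Mean-centred values were 2.04, 2.1 and 2.03 in 2 h air, 2.88, 2.71 and 2.73 in 2 h hypoxia, and 1.81, 1.65 and 1.87 in 9 h air. They were 3.34, 3.22 and 3.26 in 9 h hypoxia and 1.58, 2.01 and 1.80 in recovery. All 6 hypoxia arrays were above all 9 others, and recovery overlapped 9 h air. The rise over air was 0.72 ± 0.0961 at 2 h (1.64-fold, adjusted p = 1.7e-06), which was -0.11 on the deposited scale (adjusted p = 0.27), and 1.50 ± 0.0961 at 9 h (2.82-fold, adjusted p = 1.85e-12), which was 0.48 as deposited. Between 9 h hypoxia and recovery it fell by 1.47 ± 0.0961 (adjusted p = 9.67e-12), and by 0.62 as deposited. Of all probe sets, 1.27% had a lower mean-centred change in that comparison. Recovery and 9 h air then differed by 0.02 (95% interval from -0.18 to 0.22, adjusted p = 0.899), and by -0.14 as deposited.

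The enolase gene ENOC lost total RNA between 2 h and 9 h of hypoxia. Its total RNA values were 8.45, 8.44 and 8.38 in 2 h air, 8.24, 8.50 and 8.14 in 2 h hypoxia, and 8.22, 8.47 and 8.52 in 9 h air, and these 3 groups overlapped. They were 7.34, 7.28 and 7.27 in 9 h hypoxia and 7.44, 7.38 and 7.55 in recovery, and these 6 arrays lay below all the others, with the 9 h hypoxia arrays lowest. The 9 h change was -1.11 ± 0.0973, to 0.465 of the level in air (adjusted p = 5.84e-10). The 2 h change was -0.13 ± 0.0973 (adjusted p = 0.426), and the effect at 9 h was lower than that at 2 h by -0.97 ± 0.138 (adjusted p = 1.38e-05).

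On the mean-centred scale, polysomal ENOC did not follow its total RNA at 2 h. Mean-centred values were 2.31, 2.46 and 2.47 in 2 h air and 3.00, 2.93 and 3.06 in 2 h hypoxia, with no overlap. They were 2.31, 2.44 and 2.48 in 9 h air, 2.04, 2.08 and 2.21 in 9 h hypoxia, and 1.43, 1.40 and 1.67 in recovery. The 2 h hypoxia arrays were highest of the 15 and the recovery arrays lowest. The change was 0.58 ± 0.0957 at 2 h (1.50-fold, adjusted p = 2.6e-05), against -0.25 on the deposited scale (adjusted p = 0.021). At 9 h it was -0.30 ± 0.0957 (adjusted p = 0.0114), and -1.31 as deposited. The 9 h call on the mean-centred scale ended without replicate 3 of polysomal 9 h air (-0.27, adjusted p = 0.0503), in a fit of the groups compared alone (adjusted p = 0.0524), without replicate 1 of all groups (-0.31, adjusted p = 0.0548), without replicate 2 of all groups (-0.27, adjusted p = 0.109) and with array medians (-0.20, adjusted p = 0.0845). From 9 h hypoxia to recovery ENOC fell by a further 0.60 ± 0.0957 (adjusted p = 1.13e-05), which was a rise of 0.25 as deposited, and in recovery it was lower than in 9 h air by -0.90 (adjusted p = 2.35e-08) or -1.07 as deposited.

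The pyruvate kinase gene AT5G08570 had its highest total RNA in 9 h hypoxia and in recovery. The values were 9.15, 9.20 and 9.27 in 2 h air, 9.62, 9.44 and 9.57 in 2 h hypoxia, and 8.95, 9.13 and 9.06 in 9 h air. They were 10.44, 10.46 and 10.34 in 9 h hypoxia and 10.48, 10.57 and 10.63 in recovery. From lowest to highest the order was 9 h air, 2 h air, 2 h hypoxia, 9 h hypoxia and recovery, and no neighbours overlapped. The step from 9 h hypoxia to recovery (0.15, 95% interval from -0.10 to 0.39, adjusted p = 0.412) and that between the air groups (-0.16 from 2 h to 9 h, 95% interval from -0.41 to 0.08, adjusted p = 0.576) did not pass the test. The 9 h change was 1.37 ± 0.118, 2.58-fold (adjusted p = 4.14e-10), and 3.46% of all probe sets had a higher one. The 2 h change was 0.34 ± 0.118, 1.26-fold (adjusted p = 0.0431). That call ended with quantile normalization (0.30, adjusted p = 0.0628), and without any 1 of the 3 replicate numbers or any of 5 single arrays, where the change was between 0.27 and 0.39 and the adjusted p reached 0.176. Replicate 2 of 2 h hypoxia was the array whose omission kept it.

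The other pyruvate kinase gene, AT5G63680, did not pass at 2 h in total RNA. Its values were 7.52, 7.63 and 7.79 in 2 h air, 7.65, 7.77 and 7.83 in 2 h hypoxia and 7.40, 7.70 and 7.64 in 9 h air, which overlapped. They were 8.73, 8.88 and 8.66 in 9 h hypoxia and 8.80, 9.06 and 9.29 in recovery, all above the first 9 arrays. The change was 0.10 at 2 h (95% interval from -0.18 to 0.39, adjusted p = 0.715) and 1.18 ± 0.137 at 9 h, 2.26-fold (adjusted p = 7.43e-08), with 4.55% of probe sets higher at 9 h. Recovery was 0.29 above 9 h hypoxia (adjusted p = 0.136), and blocking on the replicate number gave an adjusted p of 0.0459.

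The hypoxia effect on total RNA was larger at 9 h than at 2 h by 1.03 ± 0.167 for AT5G08570 (adjusted p = 7.07e-05) and by 1.07 ± 0.194 for AT5G63680 (adjusted p = 0.000254). With ENOC, 3 of the 5 genes passed this test of the difference, where 18.2% of probe sets did, 8.12% higher and 10.1% lower. AT5G42740 (0.21, adjusted p = 0.341) and PPDK (-0.18, adjusted p = 0.864) did not pass it.

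In polysomal RNA the pyruvate kinases rose at both times on the mean-centred scale. AT5G08570 stood at 2.82, 3.02 and 3.05 in 2 h air, 3.62, 3.31 and 3.65 in 2 h hypoxia, 2.70, 2.79 and 2.82 in 9 h air, 4.38, 4.66 and 4.63 in 9 h hypoxia, and 4.02, 4.33 and 4.64 in recovery. AT5G63680 stood at 1.46, 1.68 and 1.51, then 2.07, 2.02 and 2.02, then 1.24, 1.42 and 1.45, then 3.05, 3.23 and 3.26, and 2.53, 3.03 and 3.23 in the same order of conditions. For both genes the 2 h hypoxia arrays lay between the air arrays and those of 9 h hypoxia and recovery, which overlapped each other. At 2 h AT5G08570 changed by 0.56 ± 0.118 (1.48-fold, adjusted p = 0.000444), against -0.27 as deposited (adjusted p = 0.037). At 2 h AT5G63680 changed by 0.49 ± 0.136 (1.40-fold, adjusted p = 0.00606), against -0.34 as deposited (adjusted p = 0.023), and without replicate 3 of all groups the adjusted p was 0.0527. At 9 h the changes were 1.79 ± 0.118 (3.45-fold, adjusted p = 2.89e-12) for AT5G08570 and 1.81 ± 0.136 (3.50-fold, adjusted p = 3.21e-11) for AT5G63680, or 0.77 and 0.79 as deposited. The hypoxia effect in mean-centred polysomal RNA was larger at 9 h than at 2 h by 1.22 ± 0.166 for AT5G08570 (adjusted p = 7.24e-06) and by 1.32 ± 0.192 for AT5G63680 (adjusted p = 1.75e-05), or 1.04 and 1.13 as deposited. ENOC (-0.88, adjusted p = 3.38e-05) and AT5G42740 (0.78, adjusted p = 0.00015) passed too, at -1.07 and 0.59 as deposited, so 4 of 5 did, where 20.7% of probe sets passed, 9.14% higher and 11.6% lower. Whether the probes of either pyruvate kinase also bind mRNA of the other was not tested.

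PPDK, best known from photosynthesis in maize and its kin and from seedling and leaf metabolism in Arabidopsis, spread widely between replicates. Its total RNA was 8.01, 7.92 and 7.48 in 2 h air, 9.34, 8.05 and 8.69 in 2 h hypoxia, 8.47, 8.35 and 7.94 in 9 h air, 9.37, 8.63 and 8.86 in 9 h hypoxia, and 9.00, 8.09 and 8.33 in recovery. Replicate 2 was the lowest array in 2 h hypoxia, in 9 h hypoxia and in recovery. Each hypoxia group lay above its own air group without overlap, but in the order of the 5 means every group overlapped the next. The change was 0.89 ± 0.344 at 2 h (adjusted p = 0.0701) and 0.71 ± 0.344 at 9 h (95% interval from -0.01 to 1.42, adjusted p = 0.0986). The 9 h change passed with array medians (0.87, adjusted p = 0.0324), in a fit of the groups compared alone (adjusted p = 0.0173) and without replicate 2 of all groups (0.92, adjusted p = 0.0375). Blocking on the replicate number gave an adjusted p of 0.0156 at 2 h. Without replicate 2 of 2 h hypoxia the change at 2 h was 1.21 (adjusted p = 0.0178) and without replicate 1 of 2 h hypoxia it was 0.56 (adjusted p = 0.348).

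Polysomal PPDK rose at both times of hypoxia on the mean-centred scale, and in recovery 2 of 3 arrays lay within the range of the air arrays and 1 above it. Mean-centred values were 1.82, 1.85 and 1.28 in 2 h air, 3.75, 2.36 and 3.94 in 2 h hypoxia, and 1.94, 1.99 and 2.1 in 9 h air. They were 4.01, 3.28 and 3.60 in 9 h hypoxia and 2.34, 1.53 and 1.41 in recovery. All 6 hypoxia arrays exceeded the other 9, the closest being replicate 2 of 2 h hypoxia and replicate 1 of recovery. The 2 h change was 1.70 ± 0.346 (3.25-fold, adjusted p = 0.000325) and 0.87 as deposited (adjusted p = 0.020), and 1.33% of probe sets had a higher mean-centred change. Without replicate 3 of all groups the mean-centred change at 2 h was 1.22 (adjusted p = 0.0828). The 9 h change was 1.62 ± 0.346 (3.07-fold, adjusted p = 0.000308), and 0.60 as deposited, where it did not pass (adjusted p = 0.096). In recovery it was below 9 h hypoxia by -1.87 ± 0.346 (adjusted p = 8.71e-05), or -1.01 as deposited (adjusted p = 0.008), and 0.497% of probe sets had a lower mean-centred change.

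**Figure D2:**
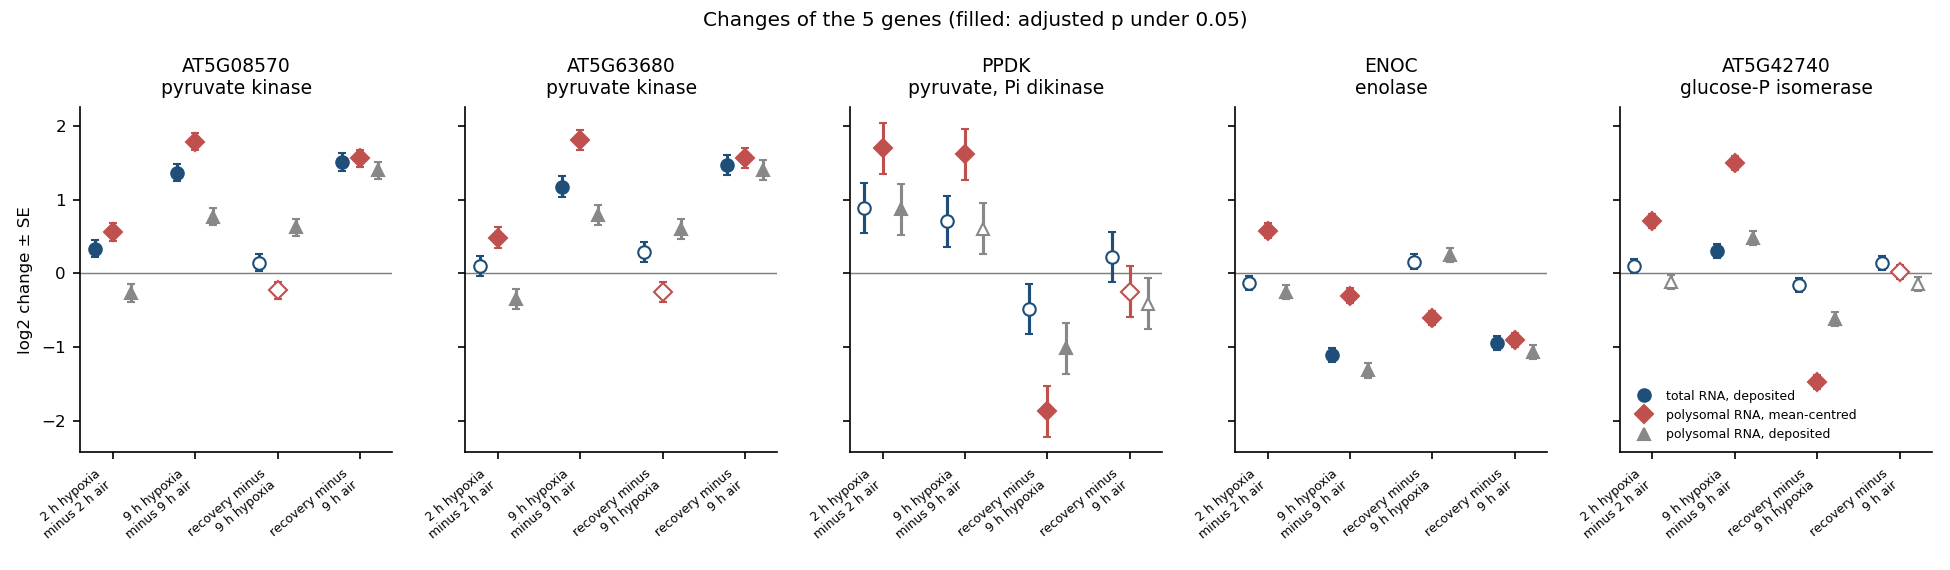
Log2 change ± SE of the 5 genes in 4 comparisons, for total RNA as deposited, polysomal RNA minus the array mean and polysomal RNA as deposited; filled symbols had an adjusted p under 0.05. The deposited polysomal changes lie below the mean-centred ones under hypoxia, with opposite signs at 2 h for all genes but PPDK, and above them from 9 h hypoxia to recovery, with opposite signs for both pyruvate kinases and ENOC.

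Reoxygenation for 1 h is read from recovery against 9 h hypoxia, which shares its hypoxia arrays with the 9 h comparison. Recovery ended 1 h later than 9 h hypoxia and 9 h air, and no air group was kept that long. In comparisons of recovery with either group, this later time and the treatment cannot be told apart. No gene of the 5 passed in total RNA in limma, where 22.2% of probe sets did, and AT5G63680 was the 1 gene to pass at an unadjusted p under 0.05. ENOC changed by 0.16 (95% interval from -0.04 to 0.36, adjusted p = 0.261), AT5G42740 by -0.16 (95% interval from -0.36 to 0.04, adjusted p = 0.256) and PPDK by -0.48 (95% interval from -1.20 to 0.24, adjusted p = 0.356). With array medians, AT5G42740 passed at -0.27 (adjusted p = 0.0453). In mean-centred polysomal RNA, PPDK, ENOC and AT5G42740 fell, 3 of 5 where 37% of probe sets passed and 18.1% fell. On the deposited scale PPDK and AT5G42740 fell and the other 3 genes rose, where 90.2% of probe sets passed, 19954 higher and 569 lower. The pyruvate kinases stood at -0.23 (AT5G08570, adjusted p = 0.14) and -0.25 (AT5G63680, adjusted p = 0.166) on the mean-centred scale and at 0.63 and 0.61 as deposited. Without replicate 3 of polysomal recovery, the highest of its group for both, the mean-centred changes were -0.38 (adjusted p = 0.0109) and -0.40 (adjusted p = 0.0273).

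Against seedlings kept in air for 9 h, recovered seedlings still held more RNA of both pyruvate kinases and less of ENOC. In total RNA, AT5G08570 was 1.51 higher (2.86-fold, adjusted p = 8.28e-11), AT5G63680 1.47 higher (2.77-fold, adjusted p = 2.13e-09), and ENOC was at -0.94, or 0.52 of the level in air (adjusted p = 1.18e-08). These were 3 of 5 genes, where 38.8% of probe sets passed, 18.2% higher and 20.6% lower. The mean-centred polysomal changes of the same 3 genes were 1.56 (adjusted p = 6.97e-11), 1.56 (adjusted p = 8.31e-10) and -0.90, where 37% of probe sets passed, 17.1% higher and 19.9% lower, and as deposited they were 1.40, 1.40 and -1.07. PPDK differed from air by 0.23 in total RNA (adjusted p = 0.666) and by -0.25 in mean-centred polysomal RNA (adjusted p = 0.648) or -0.41 as deposited, with wide 95% intervals from -0.49 to 0.94 and from -0.97 to 0.47. Total RNA of AT5G42740 differed by 0.15 (95% interval from -0.05 to 0.35, adjusted p = 0.246).

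From 2 h to 9 h in air no gene of the 5 passed in limma, in total RNA (7.06% of probe sets passed) or in mean-centred polysomal RNA (8.26%). At an unadjusted p under 0.05, AT5G42740 was the 1 gene to pass in each pool. Total RNA changed by -0.16 (AT5G08570), -0.067 (AT5G63680), 0.45 (PPDK), -0.023 (ENOC) and -0.22 (AT5G42740). The mean-centred polysomal changes lay between -0.28 (AT5G42740) and 0.36 (PPDK), or -0.28 and 0.35 as deposited. From 2 h to 9 h of hypoxia total RNA of AT5G08570 rose by 0.87 (adjusted p = 2.41e-06) and that of AT5G63680 by 1.01 (adjusted p = 2.57e-06), and ENOC fell by 1.00 (adjusted p = 1.71e-08), where 31.5% of probe sets passed, 13.8% higher and 17.7% lower. PPDK stood at 0.26 (adjusted p = 0.595) and AT5G42740 at -0.01 (adjusted p = 0.96). In mean-centred polysomal RNA AT5G42740 rose between these times as well, by 0.50 (adjusted p = 0.000192) or 0.31 as deposited, beside AT5G08570 (1.03, or 0.84), AT5G63680 (1.14, or 0.95) and ENOC, which fell (-0.89, or -1.08), so 4 of 5 passed where 33.5% of probe sets did, 16% higher and 17.5% lower. PPDK stood at 0.28 (adjusted p = 0.568), or 0.083 as deposited.

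Polysome association is the polysomal minus the total signal of a gene, both mean-centred. Its changes are relative to the average probe set, so a loss shared by all mRNA would not appear in them. Over all probe sets the median association change under hypoxia was -0.0027 at 2 h and 0.017 at 9 h. As deposited these medians were -0.82 and -0.99. In air all 5 genes lay below 0 on this scale, on average by -0.45 for AT5G08570, -0.31 for AT5G63680, -0.37 for PPDK, -0.22 for ENOC and -0.76 for AT5G42740 at 2 h, or between -1.18 (AT5G42740) and -0.65 (ENOC) as deposited. AT5G08570 (adjusted p = 0.00277) and AT5G42740 (adjusted p = 5.46e-07) were lower in polysomal than in total RNA at 2 h, 2 of 5 where 39.8% of probe sets passed and 19.4% were lower, and AT5G63680 was not (adjusted p = 0.0749), but was when the replicate number was a block (adjusted p = 0.0212). At 9 h in air these 3 passed, where 38% of probe sets did and 18.1% were lower, at -0.50 (adjusted p = 0.00118), -0.83 (adjusted p = 1.33e-07) and -0.44 (AT5G63680, adjusted p = 0.0121), or -0.92, -1.25 and -0.85 as deposited. The call of AT5G63680 ended without replicate 1 of polysomal 9 h air (-0.37, adjusted p = 0.0644), without replicate 2 of total 9 h air (-0.38, adjusted p = 0.059), and without replicate 2 (adjusted p = 0.152) or 3 (adjusted p = 0.0513) of all groups.

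**Figure D3:**
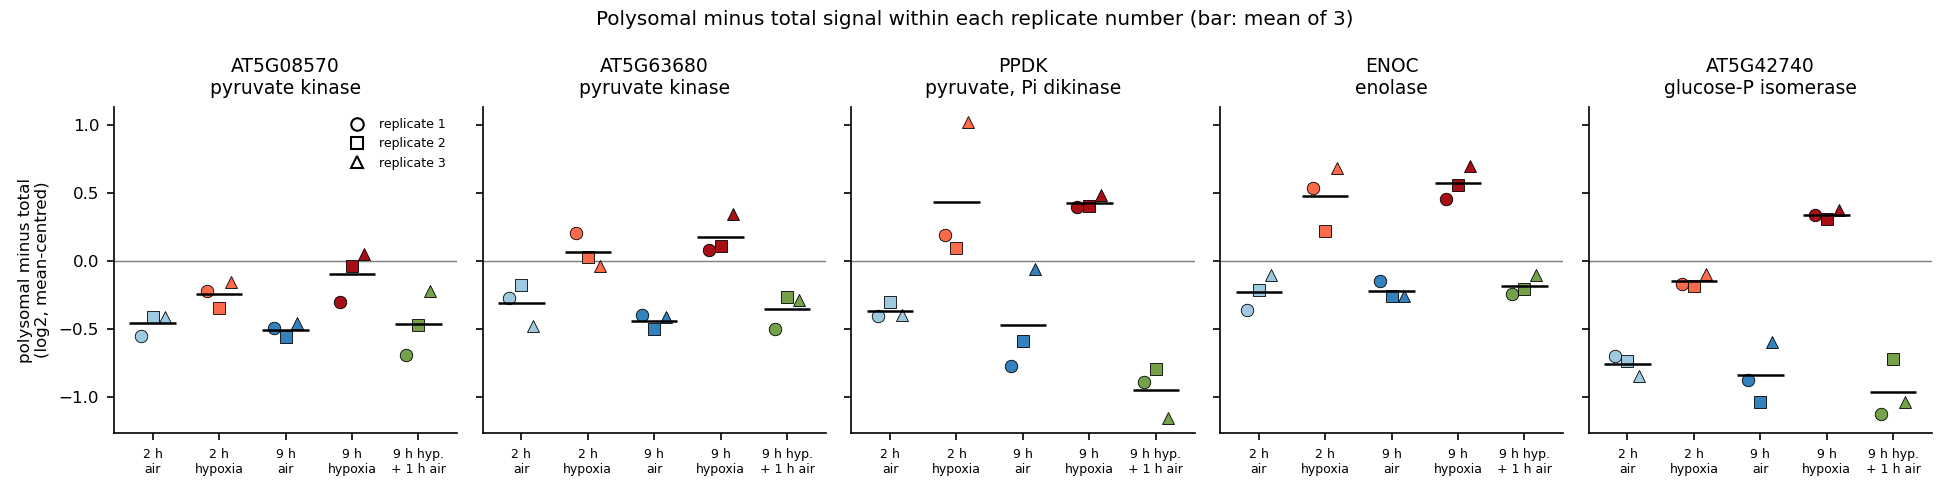
Polysomal minus total log2 signal, both minus the array mean, for each replicate number in the 5 conditions; bars are means of 3. AT5G42740 lies between 0.31 and 0.37 in 9 h hypoxia and between -1.12 and -0.72 in recovery; on the deposited scale all of its values under hypoxia shift down, and the change at 2 h turns negative.

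Under hypoxia the isomerase and the enolase gained polysome association relative to the average probe set, on the mean-centred scale. AT5G42740 went from -0.76 to -0.15 at 2 h, a change of 0.61 ± 0.136 (adjusted p = 0.00288) that was -0.21 as deposited, and from -0.83 to 0.34 at 9 h, a change of 1.17 ± 0.136 (adjusted p = 1.05e-06) that was 0.17 as deposited (adjusted p = 0.23). Its 2 h call ended without replicate 3 of all groups (0.54, adjusted p = 0.131). ENOC went from -0.22 to 0.48 at 2 h, by 0.70 ± 0.135 (adjusted p = 0.000779), or -0.11 as deposited, and from -0.22 to 0.57 at 9 h, by 0.79 ± 0.135 (adjusted p = 9.39e-05), or -0.21 as deposited. As deposited, 0 of the 5 genes rose in association at 2 h and 2 fell, where 83.1% of probe sets passed, 55 higher and 18857 lower. At 9 h 0 rose and 1 fell as deposited, where 87.8% passed, 168 higher and 19798 lower. Mean-centred, AT5G42740 and ENOC passed at 2 h, 2 of 5 where 15% of probe sets did and 7.38% rose.

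At 9 h AT5G63680 passed as well, at 0.62 ± 0.192 (adjusted p = 0.02), or -0.39 as deposited, which made 3 of 5 where 24.2% of probe sets passed and 11.5% rose. That call ended without replicate 1 of polysomal 9 h air (0.55, adjusted p = 0.0576), without replicate 2 of total 9 h air (0.56, adjusted p = 0.0536), and without replicate 2 (0.62, adjusted p = 0.159) or 3 (0.54, adjusted p = 0.134) of all groups. AT5G08570 changed by 0.22 at 2 h (adjusted p = 0.477) and by 0.41 at 9 h (adjusted p = 0.0784), or -0.60 and -0.59 as deposited. The 9 h value passed in a fit that blocked on the replicate number (adjusted p = 0.0491) and without replicate 1 of polysomal 9 h hypoxia (0.50, adjusted p = 0.0401). PPDK changed by 0.80 at 2 h (95% interval from -0.22 to 1.82, adjusted p = 0.331) and by 0.90 at 9 h (95% interval from -0.12 to 1.92, adjusted p = 0.203), or -0.02 and -0.10 as deposited. Without replicate 2 of polysomal 2 h hypoxia the PPDK value at 2 h was 1.3 (adjusted p = 0.0378).

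From 9 h hypoxia to recovery the association of 3 genes fell on the mean-centred scale, where 22% of probe sets passed and 10.8% fell. AT5G42740 changed by -1.3 ± 0.136 (adjusted p = 2.34e-07), or -0.46 as deposited, ENOC by -0.75 ± 0.135 (adjusted p = 0.000178), or 0.09 as deposited, and PPDK by -1.37 ± 0.489 (adjusted p = 0.0442), or -0.53 as deposited (adjusted p = 0.31). The PPDK call ended with quantile normalization (-1.33, adjusted p = 0.0536), without replicate 1 or 3 of all groups, and without any of 8 of its 12 single arrays, with adjusted p up to 0.27. AT5G63680 changed by -0.53 ± 0.192 (adjusted p = 0.0501), or 0.31 as deposited, and its adjusted p was 0.0104 in a fit that blocked on the replicate number. AT5G08570 changed by -0.36 (adjusted p = 0.133), or 0.48 as deposited, and without replicate 3 of polysomal recovery by -0.52 (adjusted p = 0.0165). For recovery against 9 h air the association of none of the 5 genes passed in limma, and 0 did at an unadjusted p under 0.05, where 1.44% of probe sets passed, with changes between -0.47 (PPDK) and 0.09 (AT5G63680), or -0.63 and -0.073 as deposited.

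Other genes of the pathway were taken from 3 lists, of glycolysis (6 of 25 listed genes measured), of the reactions that use phosphoenolpyruvate and pyruvate (3 of 16) and of isozymes of the 5 genes (4 of 14). A gene counted as measured if a probe set was named for it alone, and 8730 of 22746 probe sets had no gene. The 4 isozymes measured were all pyruvate kinases, so no other enolase or glucose phosphate isomerase gene was among them. In total RNA at 9 h, 5 of the 13 rose and 3 fell, with a median of 0.20 against 0.03 over all probe sets, of which 21.3% rose and 24.5% fell. The pyruvate branch gave the largest rises of these 13, with pyruvate decarboxylase PDC2 at 5.33 ± 0.121 (adjusted p = 4.45e-21) and the lactate dehydrogenase gene AT4G17260 at 2.44 ± 0.192 (adjusted p = 8.4e-11), while MAB1, a subunit of mitochondrial pyruvate dehydrogenase, fell by 0.23 (adjusted p = 0.0378). In the glycolysis list 2 rose and 2 fell of 6. GAPC2, a cytosolic glyceraldehyde phosphate dehydrogenase, rose by 0.40 (adjusted p = 0.000711) and the triose phosphate isomerase TPI by 0.28 (adjusted p = 0.0356). The pyrophosphate-dependent phosphofructokinase subunits AT1G12000 (-1.17, adjusted p = 2.17e-08) and AT1G20950 (-1.14, adjusted p = 2.8e-07) fell. Another subunit measured, AT1G76550, did not pass, with means of 7.52 in 9 h air and 7.25 in 9 h hypoxia. Of the other pyruvate kinase genes measured, AT3G25960 rose by 0.25 (adjusted p = 0.0435), and AT4G26390 (0.20), AT3G04050 (0.25) and AT5G56350 (-0.33) did not pass. The signal of AT3G25960 was low, with group means from 3.37 to 3.72 where array medians averaged 5.19 to 5.39, and so was that of AT4G26390 (3.67 to 3.90) and AT3G04050 (3.70 to 4.04). Whether these 3 lay above background was not tested. With quantile normalization 3 of the 13 rose and 4 fell, and the share over all probe sets on that scale is not given here. With array medians, which add 0.16 to every change, 7 rose and 2 fell. On that scale rises outnumbered falls over all probe sets as well, with the counts in the closing section.

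**Figure D4:**
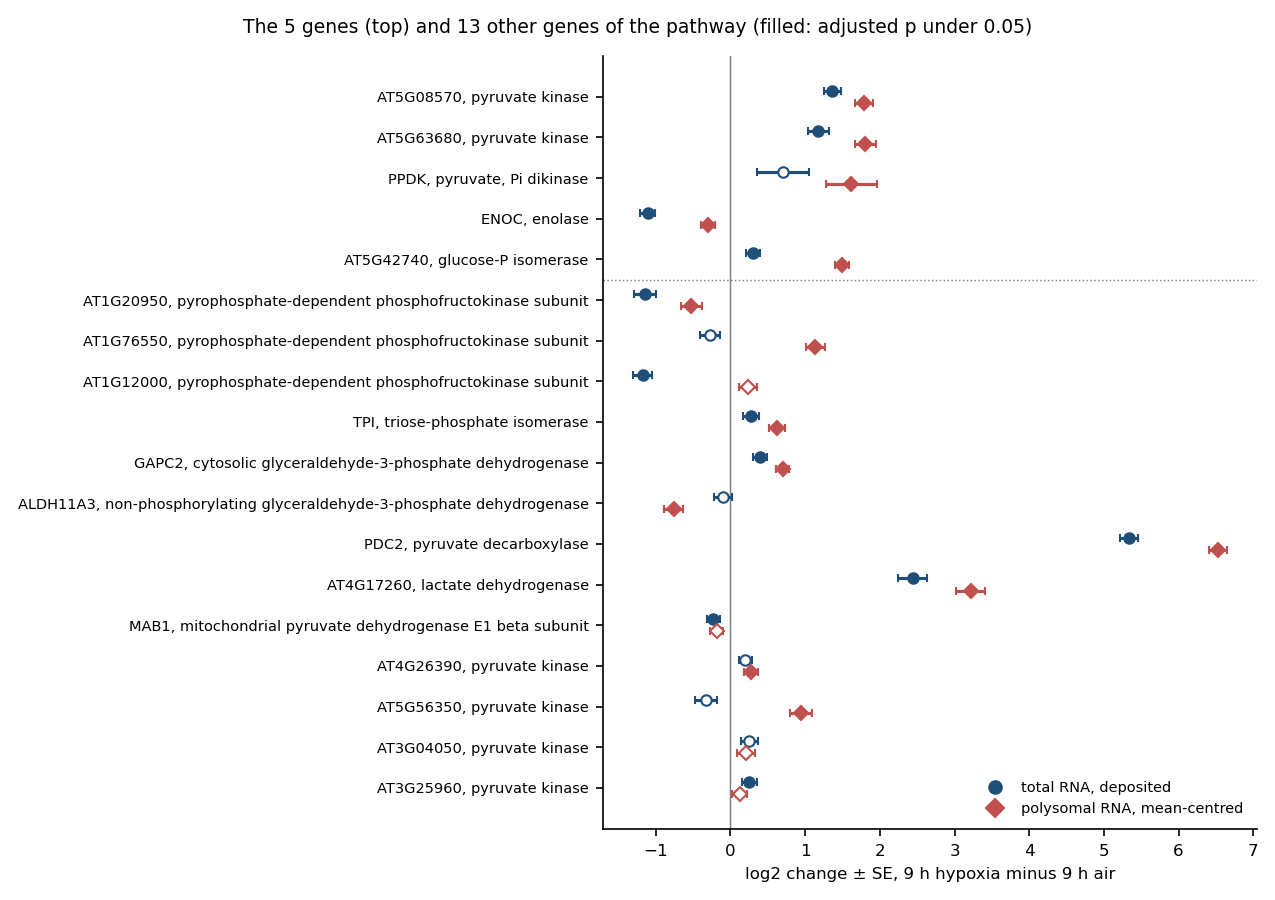
Log2 change ± SE from 9 h air to 9 h hypoxia of the 5 genes (above the dotted line) and the 13 other genes of the 3 lists, for total RNA as deposited and polysomal RNA minus the array mean; filled symbols had an adjusted p under 0.05. PDC2 and AT4G17260 lie farthest to the right, and on the deposited scale every polysomal symbol would lie 1.02 farther left, which turns TPI, GAPC2, AT1G12000, AT5G56350 and 3 further pyruvate kinase genes negative.

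In total RNA at 2 h, PDC2 (2.73) and AT4G17260 (2.15) rose and AT1G20950 (-0.52) fell, 3 of the 13, where 20.7% of all probe sets passed. The air levels of PDC2 and AT4G17260 were lower at 9 h than at 2 h. Mean total RNA of PDC2 was 8.41 in 2 h air, 11.13 in 2 h hypoxia, 6.26 in 9 h air and 11.60 in 9 h hypoxia. That of AT4G17260 was 7.04, 9.19, 6.23 and 8.67 in the same order. In recovery against 9 h air 3 rose and 2 fell, 5 of the 13 where 38.8% of all probe sets passed, with PDC2 at 5.07 and AT4G17260 at 1.67. In mean-centred polysomal RNA at 9 h, 7 of the 13 rose and 2 fell, where 47.9% of all probe sets passed (22.6% higher), and as deposited 2 rose and 9 fell, where 93.4% passed. Association rose for 6 of the 13 at 9 h on the mean-centred scale and fell for ALDH11A3, where 24.2% of all probe sets passed, whereas as deposited it rose for 2 and fell for 7, where 87.8% passed. From 9 h hypoxia to recovery it fell for 5 and rose for 0 in limma, where 22% of all probe sets passed, whereas as deposited it fell for 1 and rose for 8, where 82% passed. AT5G56350, named here after its values were seen, differed from the 2 pyruvate kinases above, with total RNA at -0.33 (adjusted p = 0.0797) and mean-centred polysomal RNA at 0.95 (adjusted p = 6.34e-06) at 9 h, the latter -0.07 as deposited. The difference between these genes was not tested.

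The genes whose mean-centred signal followed each of the 5 most closely over the 30 arrays are given as a description, since arrays share condition and pool. For AT5G08570 they were AT1G18470 (Pearson r = 0.966), AT1G78280 (0.961) and AT4G19880 (0.955). For AT5G63680 they were AT5G51830 (0.955), AT3G44190 (0.950) and Hop3 (0.939), a co-chaperone. For PPDK they were WES1 (0.923), an enzyme that joins auxin to amino acids, AT5G09880 (0.900) and AT4G19860 (0.898). For ENOC they were AT3G14220 (0.953), AT4G11290 (0.941) and AT5G12040 (0.940). For AT5G42740 they were AT5G11720 (0.941), AT4G25900 (0.933) and AT2G20360 (0.912), a subunit of mitochondrial complex I.

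Among the 5 genes the pyruvate kinases followed each other most closely, with r = 0.975 over 30 arrays, 0.971 over the 15 total RNA arrays and 0.992 over the 15 polysomal arrays. AT5G08570 and ENOC ran opposite to each other, with r = -0.713 over all arrays, -0.951 in total RNA and -0.516 in polysomal RNA. PPDK and AT5G42740 gave 0.717 over all arrays, 0.467 in total RNA and 0.834 in polysomal RNA. These are correlations over arrays of the same 10 groups and carry no test.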

How the data were processed

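Affymetrix arrays of total and polysomal RNA were read from the deposited table. The submitters' processing notes name RMA for the log2 values the authors deposited. Neither its version nor the set of arrays it was run on together is given in the sources used here. Genes were named from the platform's probe table and RefSeq locus tags (13513 of 22746 probe sets had 1 gene, 503 several, 8730 none), and 64 control probe sets were left out. No sequence or coordinate was used.

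A mean per group was fitted to all 30 arrays with limma 3.58.1 in R 4.3.3 (20 residual degrees of freedom), and p-values were adjusted by Benjamini-Hochberg over 22746 probe sets in each of 20 comparisons, with a threshold of 0.05. The 95% intervals are unadjusted. Total RNA was tested as deposited. Comparisons with polysomal arrays used values minus the array mean, with deposited values as an alternative. The procedure was tested on simulated data for total RNA at 9 h only. The simulation had independent noise and no shift of array means, so it did not cover centring, pairing or association changes. The number of arrays limits the precision. No 2 arrays were identical (highest correlation 0.9966).

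The 5 genes, the lists and the tests were chosen with earlier results of these data known. Named beside the 5 genes are, from each list, up to 4 genes that passed with the largest change in total RNA at 9 h, and the 3 genes with the highest correlation to each of the 5. AT1G76550, AT4G26390, AT3G04050, AT5G56350 and ALDH11A3 were named after their values were seen. The labels number independent experiments without saying that a number marks a shared day. Deviations from group means correlated by over 0.1 in every same-numbered pair in 11 of 14 comparisons of 2 groups. They did not in total 9 h hypoxia against air, polysomal 2 h hypoxia against air, or polysomal recovery against 9 h air. The main fit left this pairing out in every comparison, and the replicate block was run as an alternative. Alternatives were other scalings, a filter on the dimmest 40% of probe sets, fits of only the groups compared, the replicate block, and leaving out each replicate number and each array.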

Additional observations from a re-analysis of the deposited data

Results flagged for a closer look

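Several effects differed between conditions in a test of the difference itself, and no explanation was weighed. In total RNA the hypoxia effect at 9 h minus that at 2 h was 1.03 for AT5G08570, 1.07 for AT5G63680 and -0.97 for ENOC. In mean-centred polysomal RNA it was 1.22 for AT5G08570, 1.32 for AT5G63680, -0.88 for ENOC and 0.78 for AT5G42740.

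The hypoxia effect also differed between mean-centred polysomal and total RNA. At 2 h the difference was 0.70 for ENOC and 0.61 for AT5G42740. At 9 h it was 0.62 for AT5G63680, 0.79 for ENOC and 1.17 for AT5G42740. For the change from 9 h hypoxia to recovery it was -1.37 for PPDK, -0.75 for ENOC and -1.3 for AT5G42740. On the deposited scale the differences of ENOC in all 3 comparisons, of AT5G63680 at 9 h and of AT5G42740 at 2 h had the opposite sign. Groups of 3 arrays were not tested for outlying arrays.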

How the results depend on the processing

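Of 100 results for single genes (5 genes in 20 comparisons), 51 passed, and 33 of these kept their call and direction under all alternatives run. The share of all probe sets that passed lay between 1.44% (association, recovery against air) and 47.9% (polysomal RNA at 9 h) in the 20 comparisons. The share of all probe sets that kept their call under all alternatives was not computed. All 16 reversals came from the deposited values. There, polysomal changes at 2 h were -0.27 (AT5G08570), -0.34 (AT5G63680), -0.25 (ENOC) and -0.11 (AT5G42740), and from 9 h hypoxia to recovery 0.63 (AT5G08570), 0.61 (AT5G63680) and 0.25 (ENOC). Association changes were -0.60 (AT5G08570), -0.44 (AT5G63680), -0.11 (ENOC) and -0.21 (AT5G42740) at 2 h, -0.59 (AT5G08570), -0.39 (AT5G63680) and -0.21 (ENOC) at 9 h, and 0.48 (AT5G08570) and 0.088 (ENOC) on recovery. By construction that scale keeps the shift of the polysomal array means.

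Of the 5 genes, the number called in total RNA at 2 h was 1, and 0 with quantile normalization, 2 without dim probe sets, 2 with the replicate block and 0 to 2 when replicates or arrays were left out. For total recovery against 9 h hypoxia it was 0, and 1 with array medians, 1 with the block and 0 to 1 in the leave-outs. For polysomal RNA at 2 h it was 5, and 3 to 5 in the leave-outs. For polysomal recovery against 9 h hypoxia it was 3, and 3 to 5 in the leave-outs. As deposited it was 5, where 90.2% of probe sets passed. For association it was 2 at 2 h (1 to 3 in the leave-outs) and 3 at 9 h (1 as deposited, where 87.8% of probe sets passed). For polysomal against total RNA in air it was 2 at 2 h and 3 at 9 h. As deposited it was 5 at both, where 71.7% and 72.6% of probe sets passed. The cause was not tested.

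In total RNA at 9 h the replicate block brought PPDK past the threshold (adjusted p = 0.0311). Same-numbered pairs of that comparison correlated by 0.031 to 0.28, so not every pair was over 0.1. The block changed no other call of these genes beside those printed above.

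Counts over all probe sets moved too. As deposited, 623 rose and 20042 fell in polysomal RNA at 2 h, against 3566 and 4012 mean-centred, and 1031 and 20209 at 9 h, against 5142 and 5744. With array medians total RNA at 9 h had 8994 rises and 4385 falls, against 4849 and 5563. Without replicate 3, 1913 probe sets passed in total RNA at 2 h, against 4709, and 991 against 3412 for association at 2 h. The average over all single-gene probe sets of a gene gave the same values, as each gene had 1.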
